A study of Mus musculus with 12 samples.

Results

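The Par, Crumbs and Scribble complexes are the protein assemblies that divide an animal cell into an apical and a basolateral side. Their genes were examined here through 10 members, chosen by name among the 23406 genes of the deposited expression table: the Par complex genes Pard3, Pard6b, Prkci and Prkcz, the Crumbs complex genes Crb3 and Mpp5, and the Scribble module genes Llgl1, Llgl2, Scrib and Dlg1. All 10 were present in the table and all 10 passed the filter on low values. RNA was measured by sequencing in mammospheres, floating spheres that grow from mammary cells in suspension, collected at passage 2. Donor mice were C57BL/6J, either wild type (WT) or p66-/- (KO), the latter lacking p66Shc, the longest protein made from Shc1. The 4 groups, each of 3 libraries, were WT and KO at 2 months (young) and at 12 months (aged), and the labels give no treatment. The series title places p66Shc, p53 and mInsc in the control of asymmetric division in aged mammary stem cells.

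In polarised epithelia the Par complex, built on the scaffold Par3, brings the adaptor Par6 and atypical protein kinase C (aPKC) to the apical side and the tight junction. The transmembrane protein Crumbs and its scaffold Pals1 hold the apical surface, and the Scribble, Dlg and Lgl proteins hold the basolateral side. The kinase and Lgl exclude each other by phosphorylation and by competition for Par6. The same proteins set the axis of asymmetric stem cell division, where Par3 is linked to the spindle through Inscuteable, and in the mammary gland they are needed for hollow, ordered ducts and acini.

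Values are deposited CPM, read counts relative to the library size scaled by the authors, and n = 3 libraries per group throughout. Libraries held 31845169 to 109079737 reads in genes, the highest total being that of replicate 3 of aged KO. A count of 3 reads, used as a floor, stood for 0.0290 to 0.0859 CPM, and no member was at or under that floor in any library. Log2 fold changes are on the log2(CPM + 0.5) scale, which understates changes of low genes, with their standard error (SE). They come from limma fitted across 13961 genes, with p-values adjusted by the Benjamini-Hochberg method over all of them and called under 0.05. The design text names 3 mice per age and genotype, but no label ties a library to a mouse, so p-values measure only the spread between these libraries. Replicate 1 of young WT stood apart from its group in genes rich in G and C and in epithelial markers, and results that it decides are given with and without it.

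The labelled tissue was set against lists of marker genes, summed in each library. The sum of 17 epithelial markers (Epcam, Cdh1, keratins, claudins and others) was 359 to 444 CPM in young WT, 4294 to 4444 in aged WT, 504 to 582 in young KO and 548 to 582 in aged KO. All 17 were detected in every library. The sum of 10 fibroblast markers was higher in each group, between 12167 and 17874 CPM over the 12 libraries. Skeletal muscle markers summed to 183 to 205 CPM in aged WT, 261 to 312 in young KO, 927 to 1092 in young WT and 822 to 1547 in aged KO. Leukocyte markers summed to 1004 to 1285 CPM in young WT, 747 to 829 in aged WT, 848 to 937 in young KO and 268 to 473 in aged KO. Endothelial markers summed to 110.4 to 119.5 CPM in young WT, 117 to 127 in aged WT, 70.2 to 74.6 in young KO and 268 to 285 in aged KO. The T cell gene Cd3e was at 0 in young WT, aged WT and young KO and at 0.024 to 0.087 CPM in aged KO.

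The promoters of 3 members are shown, chosen because these were far higher in aged WT than elsewhere. That of Prkci is shown beside them, a member at 55.5 CPM or more in every library and also highest in aged WT. The promoters were searched for the 6 letters CAGGTG, on either strand (CACCTG), which the ZEB and SNAI repressors of epithelial genes bind. Dlg1, at 99.96 CPM or more in every library, held the letters too, as given below. Binding was not measured, and the part of these repressors in the levels of the members was not tested. Capitals mark these letters. Each window runs from 250 bases before to 50 bases after the annotated start in RefSeq, build GRCm38.p6, 5′ to 3′ on the gene's strand. The windows are chr2:168080754-168081053 on the plus strand for Pard6b, chr4:155361379-155361678 on the minus strand for Prkcz, chr17:57061981-57062280 on the plus strand for Crb3 and chr3:30995521-30995820 on the plus strand for Prkci.
Pard6b: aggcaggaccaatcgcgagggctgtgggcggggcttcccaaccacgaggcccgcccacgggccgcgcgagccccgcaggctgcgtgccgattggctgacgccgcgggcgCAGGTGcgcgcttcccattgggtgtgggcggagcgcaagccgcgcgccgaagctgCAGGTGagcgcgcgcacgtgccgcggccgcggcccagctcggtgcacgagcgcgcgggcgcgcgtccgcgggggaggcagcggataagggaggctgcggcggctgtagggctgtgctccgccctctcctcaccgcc
Prkcz: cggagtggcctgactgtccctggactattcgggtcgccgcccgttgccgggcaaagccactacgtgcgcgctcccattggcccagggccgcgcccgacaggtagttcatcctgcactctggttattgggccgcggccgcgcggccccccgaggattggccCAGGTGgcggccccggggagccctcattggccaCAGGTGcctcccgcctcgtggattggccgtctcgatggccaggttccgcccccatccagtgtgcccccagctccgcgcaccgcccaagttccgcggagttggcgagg
Crb3: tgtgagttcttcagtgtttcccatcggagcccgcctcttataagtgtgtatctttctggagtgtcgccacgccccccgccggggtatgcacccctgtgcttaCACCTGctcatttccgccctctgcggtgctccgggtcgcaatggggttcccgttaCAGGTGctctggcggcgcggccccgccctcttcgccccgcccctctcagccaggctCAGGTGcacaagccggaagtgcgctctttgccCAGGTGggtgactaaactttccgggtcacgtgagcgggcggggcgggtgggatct
Prkci: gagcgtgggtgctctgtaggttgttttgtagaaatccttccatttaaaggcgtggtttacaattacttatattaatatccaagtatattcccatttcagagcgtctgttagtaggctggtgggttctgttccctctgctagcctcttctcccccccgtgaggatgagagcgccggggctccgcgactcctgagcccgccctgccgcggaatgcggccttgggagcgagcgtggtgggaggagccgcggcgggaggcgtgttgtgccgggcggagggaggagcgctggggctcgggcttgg

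The letters occurred 4 times in the Crb3 window, with first letters at -148, -93, -37 and -5 from the start. They occurred at -141 and -86 in Pard6b and at -90 and -57 in Prkcz, and not in the Prkci window. RefSeq windows were found for 7 of the 10 members, those without an entry being Mpp5, Llgl2 and Scrib. Among the window of each nearest to its deposited start, Dlg1 also held the letters, at 43 bases after the start, and Pard3 and Llgl1 did not. Some members had further windows. Counting all of them, the letters were in 1 of 2 windows of Pard3, 1 of 4 of Dlg1, 2 of 3 of Prkcz and 2 of 2 of Crb3. Of 32851 windows of all genes, 20.2% held them. The letters ACCGGT, the core of the Grainyhead site and their own reverse complement, were in none of the windows of the 7 members and in 2.33% of all windows.

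The first comparison asked how the polarity genes differed with age in WT mammospheres. Of the 10 members, 7 rose and none fell, where 22.3% of all genes tested rose and 35.6% fell, together 58.0%. The libraries of the ages did not overlap for 8 members, and for 62.3% of all genes. The members' median log2 fold change was 0.73, against -0.08 over all genes. The rises were of unequal size. Crb3, Pard6b, Prkcz and Llgl2, which were at 0.392 to 1.97 CPM in young WT, were 7.62 to 17.7 times as high in aged WT. Prkci, Mpp5 and Dlg1, which were already well expressed, were 1.62 to 1.68 times as high. Of all called genes 38.6% rose, and 46.4% with TMM (trimmed-mean) scaling over all 12 libraries, 47.7% with DESeq2 and 50.9% with edgeR, both on recovered reads and with scaling of their own, and 49.4% after centring on GC content. In each of these alternatives, and with quantile scaling (42.0%), 9 members rose and none fell, Pard3 and Scrib being added.

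**Figure D1:**
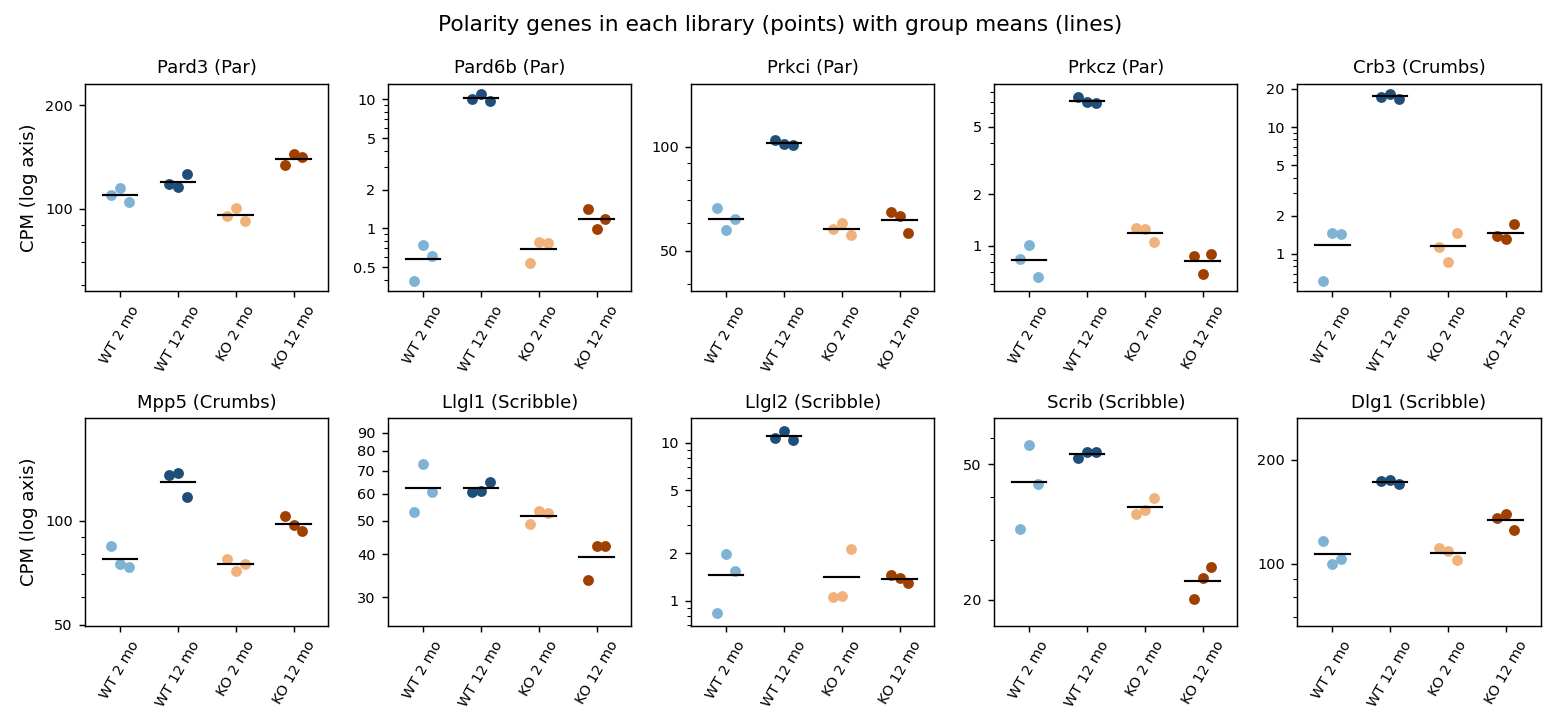
CPM of each of the 10 polarity genes in each of the 12 libraries (points, log axis, with an axis range of its own for each gene) and the mean of each group (lines). Pard6b, Prkcz, Crb3 and Llgl2 stand apart in the 3 libraries of aged WT, where every library lies above every library of the other groups.

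Crb3 (chromosome 17, 57062277 to 57065914, plus strand, mm10) encodes the short transmembrane Crumbs protein of mammalian epithelia. It had 0.613, 1.46 and 1.43 CPM in the 3 libraries of young WT, from 25 to 71 reads, and 17.3, 18.3 and 16.7 CPM in aged WT. In young KO it had 1.14, 0.864 and 1.47 CPM, and in aged KO 1.38, 1.32 and 1.71. The aged WT libraries lay above all 9 others, and the other groups overlapped. Crb3 rose with age in WT by 3.47 ± 0.20 on the log2 scale (adjusted p = 4.89e-09), and was lower in KO than in WT at 12 months by a log2 fold change of -3.19 ± 0.20 (adjusted p = 8.57e-09). Its change with age in KO was 0.26 (95% interval -0.16 to 0.69, adjusted p = 0.252), which passed at 0.54 (adjusted p = 0.00202) after centring on GC content. Its 3′ end overlaps Dennd1c on the other strand, a gene with a mean of 0.573 CPM, and the strand setting of the counting is not given in the sources used here.

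Mpp5 (chromosome 12, 78748947 to 78840713, plus strand) encodes Pals1, the scaffold that joins Crumbs to Patj and to Par6. Its values were 84.6, 74.8 and 73.4 CPM in young WT and 136, 137 and 117 CPM in aged WT. They were 77.8, 71.7 and 74.8 CPM in young KO and 103, 97.0 and 93.8 CPM in aged KO. The groups of each genotype did not overlap between ages, and aged WT lay above aged KO. The age change of Mpp5 was a rise of 0.74 ± 0.07 in WT (adjusted p = 1.17e-06) and one of 0.39 ± 0.07 in KO (adjusted p = 0.000383). At 12 months it was lower in KO by a log2 fold change of -0.41 ± 0.07 (adjusted p = 0.000241). Thus the Crumbs partner Mpp5 moved with age in both genotypes, whereas Crb3 passed the test in WT alone, and for each of them the difference between genotypes in the age effect was tested below.

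Pard6b (chromosome 2, 168081004 to 168101203, plus strand) encodes a Par6 adaptor, which carries aPKC and binds Cdc42. It was the lowest member in young WT, with 0.392, 0.738 and 0.610 CPM from 16 to 36 reads. In aged WT it had 10.1, 11.1 and 9.67 CPM, in young KO 0.541, 0.777 and 0.771, and in aged KO 1.40, 0.992 and 1.18. The libraries of aged KO lay above those of both 2-month groups and below those of aged WT. Aged mammospheres held more Pard6b in WT by 3.33 ± 0.14 (adjusted p = 2.86e-10), and in KO by 0.50 ± 0.14 (adjusted p = 0.00713), or by 0.76 with edgeR and 0.79 with DESeq2. At 12 months the log2 fold change of KO against WT was -2.68 ± 0.14 (adjusted p = 1.98e-09).

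Pard3 (chromosome 8, 127064056 to 127612286, plus strand) encodes Par3, the scaffold that recruits Par6 and aPKC and that binds Inscuteable. It had 109, 115 and 105 CPM in young WT and 118, 116 and 126 CPM in aged WT. It had 95.4, 101 and 92.4 CPM in young KO and 134, 144 and 142 CPM in aged KO. The order of the groups was young KO, young WT, aged WT and aged KO, without overlap between neighbours. Pard3 rose with age in KO by 0.54 ± 0.06 (adjusted p = 2.07e-06), while in WT the change of 0.13 ± 0.06 missed the threshold (adjusted p = 0.0682). It passed in 6 alternatives, at 0.19 (adjusted p = 0.0100) with TMM scaling over all 12 libraries and 0.16 (adjusted p = 0.0354) without replicate 2 of young WT. It was the only member above WT in aged KO (0.22 ± 0.06, adjusted p = 0.00329), which quantile scaling undid (0.079, adjusted p = 0.250). At 2 months it was lower in KO (-0.19 ± 0.06, adjusted p = 0.0374), but this was lost under 10 alternatives, among them TMM over all 12 libraries (-0.10, adjusted p = 0.322) and leaving out replicate 2 of young WT, 1 of aged WT, or 1 or 3 of young KO (adjusted p = 0.135, 0.0542, 0.115 and 0.146).

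Prkci and Prkcz encode the atypical protein kinases C iota and zeta, the catalytic part of the Par complex. Prkci (chromosome 3, 30995771 to 31052740, plus strand) had 66.5, 57.4 and 61.8 CPM in young WT and 105, 102 and 101 CPM in aged WT. It had 57.6, 60.3 and 55.5 CPM in young KO and 64.8, 63.1 and 56.3 CPM in aged KO. Only the aged WT libraries stood apart, and the other groups overlapped. Prkci rose with age in WT by 0.73 ± 0.07 (adjusted p = 5.89e-07), and its change of 0.08 in KO did not pass (95% interval -0.06 to 0.23, adjusted p = 0.277). Its log2 fold change between genotypes at 12 months was -0.74 ± 0.07 (adjusted p = 4.05e-07).

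Prkcz (chromosome 4, 155260120 to 155361391, minus strand) had 0.834, 1.005 and 0.652 CPM in young WT, from 31 to 49 reads, and 7.43, 6.92 and 6.87 CPM in aged WT. It had 1.27, 1.25 and 1.05 CPM in young KO and 0.867, 0.685 and 0.900 CPM in aged KO. The age difference ran in opposite directions, with 12-month libraries above the 2-month ones in WT and below them in KO. Prkcz rose in WT by 2.52 ± 0.12 (adjusted p = 8.49e-10) and fell in KO (-0.36 ± 0.12, adjusted p = 0.0162). The fall in KO lost its call when replicate 1 or 2 of young KO or replicate 2 of aged KO was left out (adjusted p = 0.0544, 0.0503 and 0.0675). Between genotypes at 12 months its log2 fold change was -2.53 ± 0.12 (adjusted p = 6.77e-10).

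Llgl1 and Llgl2 encode the Lgl proteins, basolateral substrates of aPKC. Llgl2 (chromosome 11, 115824058 to 115855780, plus strand) had 0.834, 1.97 and 1.53 CPM in young WT, from 34 to 96 reads, and 10.7, 11.9 and 10.5 CPM in aged WT. It had 1.05, 1.08 and 2.13 CPM in young KO and 1.45, 1.39 and 1.30 CPM in aged KO. Again the aged WT libraries alone stood apart. Llgl2 rose with age in WT by 2.61 ± 0.22 (adjusted p = 2.54e-07), and its change of 0.01 in KO had a 95% interval of -0.46 to 0.49 (adjusted p = 0.964). At 12 months it was lower in KO than in WT (-2.61 ± 0.22, adjusted p = 1.99e-07).

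Llgl1 (chromosome 11, 60699690 to 60714188, plus strand) had 53.0, 73.3 and 60.7 CPM in young WT and 60.5, 60.9 and 64.9 CPM in aged WT. It had 48.9, 53.4 and 52.5 CPM in young KO and 33.6, 42.4 and 42.1 CPM in aged KO. The WT ages overlapped, and the aged KO libraries lay below those of every other group. Its change with age in WT was 0.01 ± 0.11 (95% interval -0.23 to 0.24, adjusted p = 0.963). In KO it fell (-0.39 ± 0.11, adjusted p = 0.00596), and at 12 months it was lower in KO than in WT (-0.66 ± 0.11, adjusted p = 0.000119). After centring on GC content the call for age in KO was lost (-0.12, adjusted p = 0.121) and the 12-month value was -0.17 (adjusted p = 0.0291). Its 3′ end overlaps Flii on the other strand, a gene with a mean of 117 CPM.

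Scrib and Dlg1 encode the large scaffolds of the basolateral side. Scrib (chromosome 15, 76047186 to 76069730, minus strand) had 32.3, 56.9 and 43.9 CPM in young WT and 52.2, 54.4 and 54.4 CPM in aged WT. It had 35.8, 36.6 and 39.8 CPM in young KO and 20.1, 23.2 and 24.9 CPM in aged KO. The young WT libraries were the most scattered of the 4 groups, and the aged KO libraries lay below all others. Scrib fell with age in KO (-0.71 ± 0.15, adjusted p = 0.000882), while its value of 0.31 ± 0.15 for age in WT missed the threshold (adjusted p = 0.0935). It did pass in 7 alternatives, with TMM over all 12 libraries (0.37, adjusted p = 0.0477) and without replicate 2 of young WT (0.50, adjusted p = 0.00260) among them. At 12 months Scrib was lower in KO than in WT (-1.23 ± 0.15, adjusted p = 7.27e-06). After centring on GC content the values were -0.43 for age in KO (adjusted p = 3.52e-05) and -0.73 at 12 months (adjusted p = 1.43e-07).

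Dlg1 (chromosome 16, 31663443 to 31873356, plus strand) had 116, 99.96 and 103 CPM in young WT and 174, 174 and 170 CPM in aged WT. It had 111, 109 and 102 CPM in young KO and 136, 140 and 125 CPM in aged KO. The 2-month groups overlapped, aged KO lay above them and aged WT above aged KO. For Dlg1 the age change was 0.70 ± 0.06 in WT (adjusted p = 4.97e-07), against 0.31 ± 0.06 in KO (adjusted p = 0.000686). The log2 fold change of KO against WT at 12 months was -0.37 ± 0.06 (adjusted p = 0.000143).

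Counted over the 10 members, age in KO gave 4 rises (Pard3, Pard6b, Mpp5 and Dlg1) and 3 falls (Prkcz, Llgl1 and Scrib), where 67.0% of all genes were called, 32.9% higher and 34.2% lower. The ages did not overlap for 7 members and for 72.9% of all genes. The members' median was 0.17, against -0.02 over all genes. At 12 months 9 members were lower in KO and Pard3 higher, where 38.9% of all genes were lower, 31.3% higher and 70.2% either. Here the genotypes did not overlap for any of the 10 members, and for 73.9% of all genes, and the median was -0.98, against -0.07 over all genes. At 2 months Pard3 alone passed, where 16.1% of all genes were called, 14.2% lower and 1.86% higher. In 5 alternatives Prkcz passed in its place, as higher in KO: with TMM over all 12 libraries (0.41, adjusted p = 0.0433), quantile scaling (0.54, adjusted p = 0.00970), edgeR (0.62, adjusted p = 0.0442), centring on GC content (0.47, adjusted p = 0.0144) and without replicate 2 of young WT (0.45, adjusted p = 0.0377). The genotypes did not overlap for 2 members, Pard3 and Prkcz, and for 32.1% of all genes. The 9 others had adjusted p-values of 0.0632 to 0.974, with Prkcz nearest to the threshold at a log2 fold change of 0.35 (95% interval 0.10 to 0.61). That interval does not show the 2-month groups to be alike, and those of Crb3 (-0.40 to 0.44) and Llgl2 (-0.49 to 0.46) were wide. Of all called genes at 2 months 11.5% were higher in KO, and 29.2%, 39.6%, 33.5%, 30.6% and 35.9% with TMM over all 12 libraries, quantile scaling, edgeR, DESeq2 and centring on GC content. These comparisons share groups of libraries, so their values stand side by side and are not independent of each other.

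**Figure D2:**
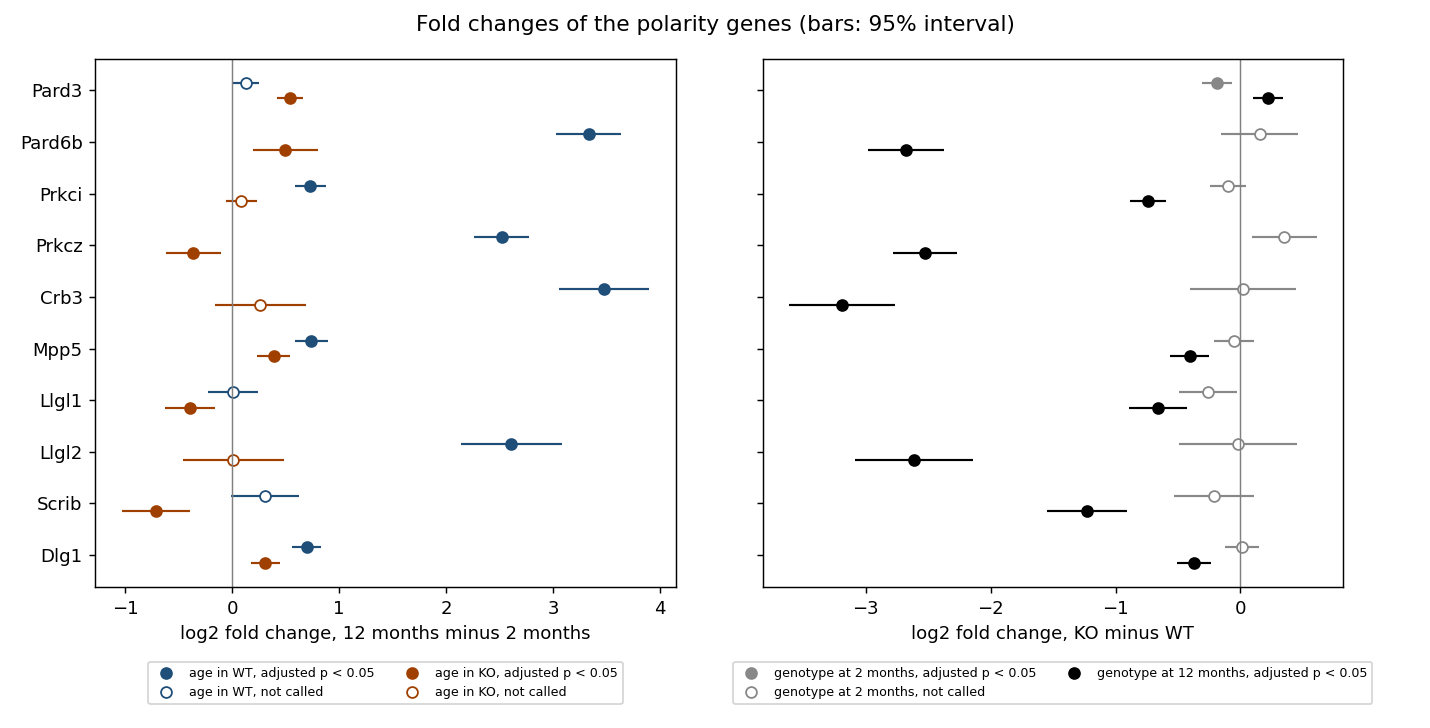
Log2 fold changes of the 10 polarity genes with their 95% intervals, for age in WT and KO (left) and for KO minus WT at 2 and 12 months (right); filled points passed an adjusted p under 0.05. The age changes of Pard6b, Prkcz, Crb3 and Llgl2 in WT lie between 2.52 and 3.47, and at 12 months every member but Pard3 lies to the left of 0.

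The age effects were then compared between genotypes through the interaction, which subtracts the WT age effect from the KO one. All 10 members passed, 9 below 0 and Pard3 above, where 57.7% of all genes passed, 26.2% below 0 and 31.4% above. The members' median was -0.83 and that of all genes 0.02. Values were -3.21 ± 0.28 for Crb3 (adjusted p = 4.48e-07), -2.88 ± 0.17 for Prkcz (adjusted p = 1.29e-08), -2.83 ± 0.20 for Pard6b (adjusted p = 7.03e-08) and -2.60 ± 0.31 for Llgl2 (adjusted p = 9.91e-06). Smaller differences were found for Scrib (-1.02 ± 0.21, adjusted p = 0.00104), Prkci (-0.64 ± 0.09, adjusted p = 6.44e-05), Dlg1 (-0.39 ± 0.09, adjusted p = 0.00225) and Mpp5 (-0.35 ± 0.10, adjusted p = 0.00996), where centring on GC content gave -0.58 for Dlg1 and -0.55 for Mpp5. The rise of Pard3 was larger in KO (0.41 ± 0.08, adjusted p = 0.000668), a call lost with quantile scaling (0.18, adjusted p = 0.0807). The value of Llgl1 (-0.40 ± 0.15, adjusted p = 0.0393) was past the threshold by little, and it lost the call with no filter on low values (adjusted p = 0.0625), after centring on GC content (-0.075, adjusted p = 0.486) and without any of 8 single libraries. These were replicates 1 and 3 of young WT, 1, 2 and 3 of aged WT, 2 and 3 of young KO and 1 of aged KO, with adjusted p-values of 0.0559 to 0.0990.

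The 4 members with large rises in WT moved with the epithelial markers between the ages of WT and between the genotypes at 12 months. All 17 markers rose with age in WT, with log2 fold changes of 1.61 to 4.38 and a median of 3.29, where 22.3% of all genes rose. All 17 were lower in KO at 12 months, with a median of -2.74, where 38.9% of all genes were lower. With age in KO 8 markers rose and 2 fell (median 0.33), where 32.9% of all genes rose and 34.2% fell. In bulk RNA, more cells of a type and more RNA per cell cannot be told apart. Per 1000 CPM of the summed markers, Pard6b stood at 1.39 ± 0.286 (SD) in young WT and 2.37 ± 0.201 in aged WT, Prkcz at 2.03 ± 0.455 and 1.63 ± 0.0897, Crb3 at 2.76 ± 0.914 and 4.01 ± 0.256, and Llgl2 at 3.43 ± 1.06 and 2.54 ± 0.213. Relative to the markers these 4 therefore differed by 0.739 to 1.71 times between the ages, where their CPM differed by 7.62 to 17.7 times. The other 6 members lay at 0.0946 to 0.157 times their 2-month ratio, since the markers rose far more than they did. Against aged KO, the ratios of aged WT were 1.12 times as high for Pard6b and Prkcz, 1.53 for Crb3 and 1.03 for Llgl2. The part of the epithelial marker level in these differences was not tested.

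**Figure D3:**
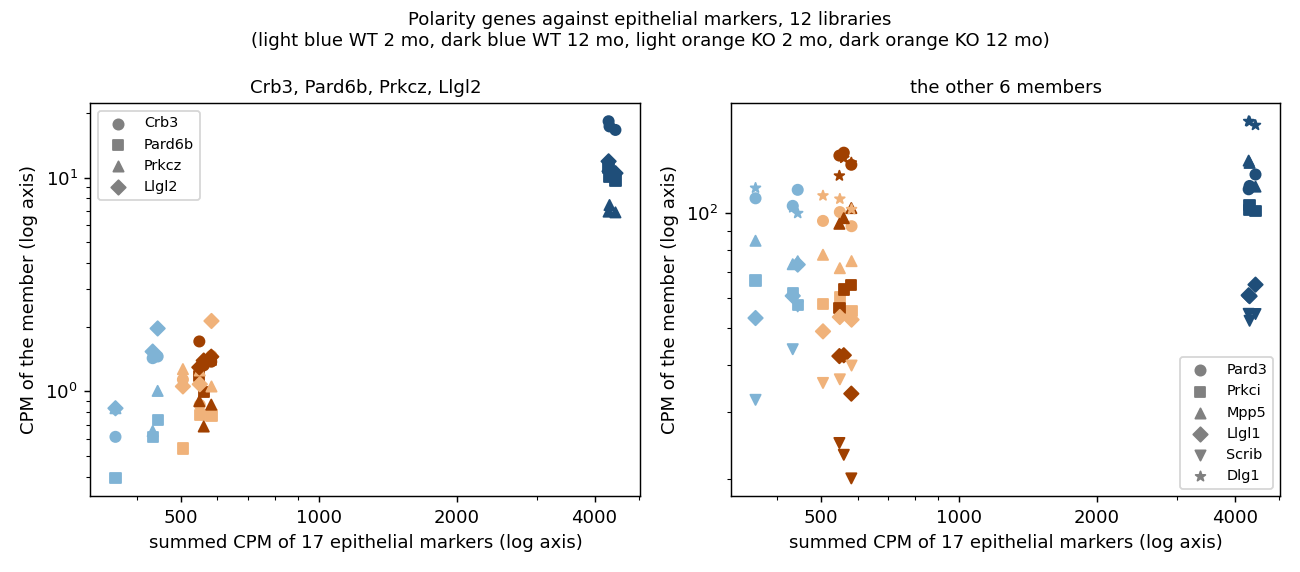
CPM of each polarity gene against the summed CPM of 17 epithelial markers in the 12 libraries (both axes log), with colour for the group and shape for the gene. On the left, Crb3, Pard6b, Prkcz and Llgl2 are high in the 3 libraries of aged WT, which are those with marker sums of 4294 to 4444 CPM, and low in the 9 libraries at 359 to 582 CPM.

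Members of a family were set side by side per kilobase of the longest transcript, so that levels of different genes could be compared. In young WT the order in CPM per kilobase was Pard3 (18.9), Dlg1 (17.4), Llgl1 (14.5), Mpp5 (14.2), Prkci (13.1), Scrib (7.93), Crb3 (0.967), Llgl2 (0.400), Prkcz (0.203) and Pard6b (0.171). The libraries of neighbours overlapped except between Prkci and Scrib and between Scrib and Crb3. In aged WT Dlg1 (28.1) led, followed by Mpp5 (23.8), Prkci (21.8), Pard3 (20.6), Crb3 (14.5), Llgl1 (14.4), Scrib (9.58), Llgl2 (3.05), Pard6b (3.02) and Prkcz (1.73). Here the libraries of Mpp5 and Prkci, of Prkci and Pard3, of Crb3 and Llgl1, and of Llgl2 and Pard6b overlapped.

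Pard6b, Prkcz and Llgl2 were the minor genes of their families in young WT and took larger shares in aged WT. Pard6b made up 1.47% ± 0.217 (SD) of the Par6 family (Pard6a, Pard6b, Pard6g) per kilobase in young WT and 20.7% ± 1.52 in aged WT, and 2.00% ± 0.227 and 3.94% ± 0.967 in 2-month and aged KO. Prkcz made up 1.54% ± 0.400 of the aPKC pair in young WT, 7.36% ± 0.165 in aged WT, 2.32% ± 0.168 in young KO and 1.52% ± 0.286 in aged KO. Llgl2 made up 2.62% ± 0.684 of the Lgl pair in young WT, 17.5% ± 1.38 in aged WT, 3.16% ± 1.26 in young KO and 4.07% ± 0.731 in aged KO. So even where they were highest, Prkcz and Llgl2 remained the minor genes of their pairs. Crb3 made up 95.4% to 99.8% of the Crumbs family on average, since Crb1 had 0 to 3 reads and Crb2 3 to 13 reads in every library.

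The relatives of Pard3 and Dlg1 behaved differently in aged KO. Pard3b, the other Par3 gene, had group means of 58.8 (young WT), 44.4 (aged WT), 49.8 (young KO) and 139 CPM (aged KO), so that the share of Pard3 in the pair was 72.9% ± 1.06, 79.6% ± 1.06, 73.6% ± 0.370 and 59.2% ± 0.488. Dlg2, which encodes PSD-93, known mostly from synapses, was 3.40, 2.57, 4.11 and 21.4 CPM in the same order. Dlg1 nonetheless made up 55.7% to 66.7% of the 5 Dlg genes in every group mean.

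**Figure D4:**
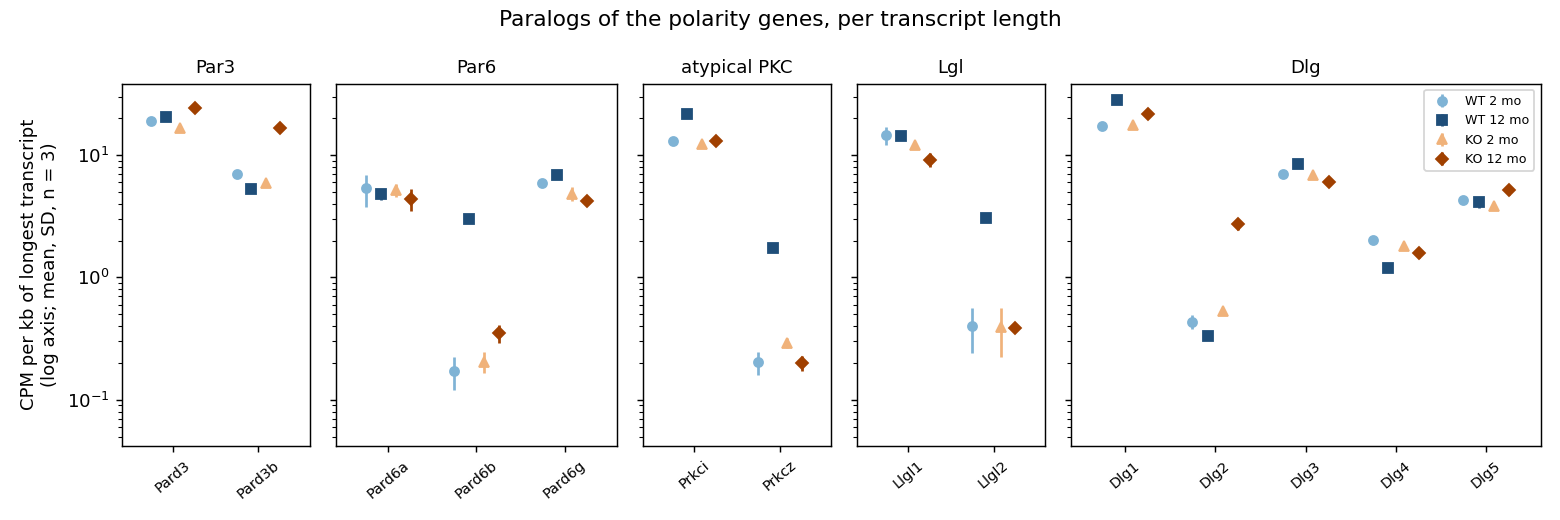
Level per kilobase of the longest transcript (log axis, mean with SD, n = 3) of the members and their paralogs in the Par3, Par6, aPKC, Lgl and Dlg families, with colour and shape for the group. The minor genes Pard6b, Prkcz and Llgl2 are highest in aged WT, at 3.02, 1.73 and 3.05 CPM per kilobase, and Pard3b and Dlg2 in aged KO, at 16.6 and 2.74.

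Other genes of the 3 complexes were counted from lists chosen with earlier results of these data known. Of 9 other Par complex genes, aged WT had 1 higher and 5 lower than young WT, and aged KO had 6 higher and 1 lower than young KO. At 12 months 6 were higher and 2 lower in KO. Of 9 other Crumbs complex genes 6 were tested, and 3 of these were higher and 1 lower in aged WT than in young WT, 4 higher and 1 lower in aged than in young KO, and 2 were higher and 4 lower in KO at 12 months. Among 11 other Scribble module genes, 3 rose and 3 fell in WT, 3 rose and 2 fell in KO, and 3 were higher and 4 lower in KO at 12 months. At 2 months 5 of the other Par genes were lower in KO and no gene of the other Crumbs or Scribble lists passed. Set beside these counts, 58.0% of all genes were called for age in WT (22.3% higher, 35.6% lower) and 67.0% for age in KO (32.9% and 34.2%). The share was 70.2% at 12 months (31.3% higher, 38.9% lower) and 16.1% at 2 months (1.86% and 14.2%). At 2 months the median of all genes was -0.088 in the limma fit and -0.0044 with TMM over all 12 libraries. Values of the list genes, here and below, are from the limma fit alone, and none is given under the alternatives.

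By size, the largest rises of these lists in WT were those of Patj, Epb41l5 and F11r, which were within about 1 SE of each other. Patj, the scaffold bound by Mpp5, went up in WT from 10.5 CPM in young to 77.0 CPM in aged libraries (2.82 ± 0.09, adjusted p = 2.65e-11). Epb41l5, a Crumbs-binding FERM protein, rose from 5.72 to 43.2 CPM (2.81 ± 0.09, adjusted p = 2.34e-11). F11r, of the Par list, encodes the junctional adhesion molecule JAM-A, which binds Par3, and rose from 12.2 to 82.9 CPM (2.71 ± 0.10, adjusted p = 8.40e-11). With age in KO these 3 genes rose too, where 32.9% of all genes did. The values in KO were 0.95 for F11r (adjusted p = 2.53e-06), 0.79 for Epb41l5 (adjusted p = 5.25e-06) and 0.49 for Patj (adjusted p = 0.000449). The 3 genes were lower in KO at 12 months, F11r by a log2 fold change of -1.78 (adjusted p = 4.12e-09), Patj by a log2 fold change of -2.41 (adjusted p = 1.19e-10) and Epb41l5 of -2.06 (adjusted p = 3.80e-10), and the interactions of Patj and Epb41l5 were -2.34 (adjusted p = 9.09e-09) and -2.02 (adjusted p = 2.84e-08). The largest falls in WT were those of Frmd4b, a Par3-binding scaffold (-0.75, adjusted p = 8.44e-07), and Dlg4, which encodes PSD-95 (-0.72, adjusted p = 9.78e-06).

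In KO the largest rises with age were those of Dlg2 (2.24 ± 0.10, adjusted p = 8.65e-10) and Lin7a, a small partner of Pals1 (1.51 ± 0.13, adjusted p = 3.32e-07). The largest fall with age in KO among the Par, Crumbs and Scribble lists was that of Amot, a Patj-binding angiomotin (-0.87 ± 0.07, adjusted p = 1.65e-07). Markers of other cell types also changed with age in KO, in which Pard3, Pard3b, Dlg2 and Lin7a rose. All 6 endothelial markers rose (median log2 fold change 2.01) and were higher in KO at 12 months (median 1.03), where 31.3% of all genes were higher. Of 8 skeletal muscle markers 6 rose (median 0.85) and Ckm fell (-1.19). All 6 leukocyte markers tested fell (median -0.70), and of 10 fibroblast markers 4 rose and 4 fell. Of all genes 32.9% rose with age in KO and 34.2% fell. Muscle markers also summed to 927 to 1092 CPM in young WT, where Pard3b, Dlg2 and Lin7a had means of 58.8, 3.40 and 0.824 CPM. The part of these cell types in the rises of the 4 polarity genes was not tested. At 12 months Dlg2 and Pard3b stood highest in KO against WT, with log2 fold changes of 2.83 (adjusted p = 8.10e-11) and 1.64 (adjusted p = 6.96e-11), and their interactions were 2.58 (adjusted p = 1.04e-08) and 1.88 (adjusted p = 1.22e-09). At 2 months the largest differences below WT were Frmd4b (-0.53, adjusted p = 0.000239) and Tiam1, the Rac activator that binds Par3 (-0.49, adjusted p = 0.00828).

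The members also differed in the GC content of their longest transcripts, from 39.5% in Mpp5 and 43.8% in Dlg1 to 58.3% in Llgl1, 60.5% in Llgl2 and 61.2% in Scrib. Over all genes the fold changes moved with GC content. In the decile of highest GC content (57.7% to 70.6%), the median log2 fold change was -0.52 for KO against WT at 12 months and -0.26 for age in KO, against 0.14 and 0.03 in the lowest decile. At 12 months the values of Llgl1 and Scrib, -0.66 and -1.23, differed from the median of their decile by -0.14 and -0.71. After centring on GC content, an alternative added after seeing this dependence, Scrib kept its calls for age in KO, at 12 months and for the interaction, whereas Llgl1 kept the one at 12 months and lost the others. Crb3 (57.8%) and Llgl2 were in the same decile and kept their calls at 12 months. Their values there were -2.70 and -2.12 after centring, against -3.19 and -2.61 before. In replicate 1 of young WT the genes of the highest decile had a median deviation of -0.28 from their group mean and Scrib of -0.41, and in replicate 2 these were 0.22 and 0.39. Without replicate 1, Llgl1 (-0.37, adjusted p = 0.0201) and Scrib (-0.42, adjusted p = 0.0131) were lower in KO at 2 months, where neither passed with it (-0.26 and -0.21, adjusted p = 0.135 and 0.399).

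**Figure D5:**
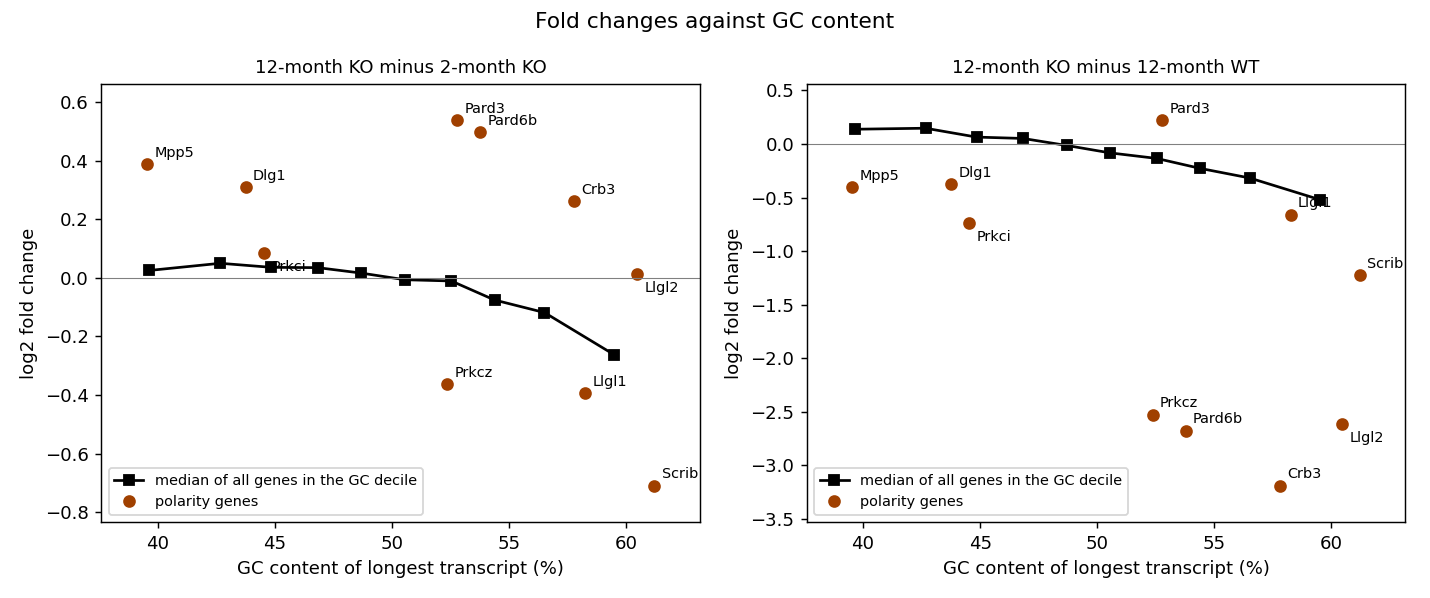
Log2 fold change against the GC content of the longest transcript, for age in KO (left) and for KO minus WT at 12 months (right); squares join the medians of all genes in 10 GC deciles and circles are the polarity genes. The medians fall to -0.26 and -0.52 in the highest decile, near Llgl1 and above Scrib.

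Correlations of the members across the 12 libraries are given as a description, because the libraries form groups. Pearson's r between Crb3, Pard6b, Prkcz and Llgl2 was 0.956 to 0.989 (6 pairs), 0.978 between Mpp5 and Dlg1 and 0.958 between Llgl1 and Scrib. Prkci lay nearer to the former 4 (0.924 to 0.949) than to Mpp5 (0.885) and Dlg1 (0.901), and Mpp5 and Dlg1 were also at 0.810 to 0.912 with those 4. Over all 45 pairs it ran from -0.436 to 0.989. The genes most like each member were named for those whose group means spanned more than 1 on the log2 scale. They were Ccdc64b (r = 0.996), Cldn7 (0.995) and Eps8l2 (0.994) for Crb3, and Wwc1, Cited4 and Spns2 (0.996 each) for Pard6b. For Prkcz they were Sox10 (0.990), Fgd3 (0.989) and Acta2 (0.989), for Llgl2 Ccdc120 (0.991), Trpv4 (0.991) and Crb3 (0.989), and for Scrib Rcc2 (0.993), Fbf1 (0.990) and Ercc2 (0.990). Cldn7 is also in the list of epithelial markers.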

How the data were processed

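Total RNA of mammospheres was isolated with the PicoPure kit and made into libraries with the TruSeq Stranded total RNA kit, per the labels' protocols. Reads were handled with TopHat2 2.1.0, Bowtie2 2.2.4, SAMtools 0.1.18 and HTSeq 0.6.1p1 on mm10, per the submitters' processing notes. For the annotation and strand setting the sources used here give nothing. Per the file headers, the deposited signal is CPM after the trimmed-mean scaling (TMM) of edgeR.

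Dividing each value by that of 1 read gave whole reads, within 0.1, for 100% of values in every library. The table of 23406 genes was cut to the 13961 with a mean of at least 0.5 CPM. log2(CPM + 0.5) was fitted on the 4 groups of 12 libraries with limma 3.58.1 under R 4.3.3, using its mean-variance trend, giving 5 comparisons. Alternatives were other pseudocounts (0.1 and 1), no filter or one of 2 CPM, TMM over all 12 libraries, quantile scaling, edgeR 4.0.16 and DESeq2 1.42.0 on the recovered reads, only the groups compared, a replicate block, each library left out, and, added after seeing the data, centring within GC deciles. The limma fit was also run on simulated data with the same spread set for all genes, unlike these data, and no result here rests on that run. TMM recomputed over all 12 libraries changed library sizes by 0.037 log2 in young WT and by -0.062 to -0.023 in the other groups, so the deposited columns do not share 1 scale.

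Named were all 10 members, the largest called rises and falls among the lists of other polarity genes, and the 3 genes of highest Pearson r to members spanning over 1 log2. The members and lists were chosen with earlier results of these data known. Starts were raised by 1, since 56.7% of deposited starts lay 1 below those of RefSeq. Lengths and GC content (94.3% of tested genes matched) are from GENCODE on GRCm38, which is mm10.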

Additional observations from a re-analysis of the deposited data

Results flagged for a closer look

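Each of the 10 members had an age effect that differed between genotypes by the interaction term of the limma fit across all genes, where 57.7% of all genes passed. The log2 difference, with the WT age effect subtracted from the KO one, was -3.21 for Crb3, -2.88 for Prkcz, -2.83 for Pard6b and -2.60 for Llgl2, genes at aged WT levels of 6.87 to 18.3 CPM and at 0.392 to 2.13 CPM in the other libraries. It was -1.02 for Scrib and -0.40 for Llgl1, which fell with age in KO. The Llgl1 difference lost its call in 10 of 22 alternatives and was -0.075 after centring on GC content, which also ended the call of its fall in KO. It was -0.64 for Prkci, -0.39 for Dlg1 and -0.35 for Mpp5, which rose with age in WT. Pard3, at 0.41, was the member with a larger rise in KO, a call lost under quantile scaling. For Prkcz the age effects had opposite signs, 2.52 in WT and -0.36 in KO.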

How the results depend on the processing

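Of 35 called results of single members over the 5 comparisons, 29 kept their call in every alternative run (23, or 22 for the interaction) and none reversed; the 6 others, of Pard3, Prkcz and Llgl1, are given with their values in the report, and the cause was not tested. At 2 months the number of members differing between genotypes was 1, Pard3, lower in KO; in 5 alternatives it was 1 again but Prkcz, higher in KO. It was 0 with DESeq2 and with only the groups compared, 2 with a replicate block, and 0 to 3 when single libraries were left out. The number of all genes differing at 2 months was 2245, against 1458 with TMM over all 12 libraries, 1322 with quantile scaling, 1414 with edgeR and 1408 to 3028 with single libraries left out. Quantile scaling moved the median of all genes at 2 months from -0.088 to 0.023. Only uncalled values reversed. At 2 months these were Prkci with edgeR (0.0042), Mpp5 with TMM over 12 libraries (0.036), quantile scaling (0.031), edgeR (0.049) and DESeq2 (0.035), and Llgl2 in the same order (0.047, 0.17, 0.057, 0.057) and after centring on GC content (0.15). With single libraries left out, the range at 2 months was -0.25 to 0.16 for Crb3, -0.090 to 0.012 for Mpp5, -0.27 to 0.18 for Llgl2 and -0.030 to 0.080 for Dlg1. For age in KO, Llgl2 reversed with quantile scaling (-0.097), edgeR (-0.043) and DESeq2 (-0.012), and ranged from -0.12 to 0.26 with single libraries left out. For age in WT, Llgl1 reversed after centring on GC content (-0.040) and ranged from -0.10 to 0.13.

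The same replicate numbers occur in all groups. Between groups, correlations of same-numbered deviations were 0.089 to 0.59 for replicate 1, 0.031 to 0.37 for replicate 3 and -0.16 to 0.082 for replicate 2. Those of libraries with different numbers ran from -0.56 to 0.42. In the decile of highest GC content, replicate 1 had a median below its group mean in every group (-0.28 to -0.033). Replicate 3 lay above it in every group (0.022 to 0.16). Whether libraries of the same number share a batch was not tested. The replicate block added Scrib for age in WT (adjusted p = 0.0412) and Llgl1 at 2 months (adjusted p = 0.0416) to the calls, and changed no other member. Low counts limit Pard6b, Prkcz, Crb3 and Llgl2 outside aged WT, where 16 to 177 reads stood behind a value.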

Other observations

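The kinases LKB1 and PAR-1, which act with the polarity complexes on the microtubules and the basolateral side, were counted from a list of 9 genes that was also chosen with earlier results known. With age 3 rose and 1 fell in WT, and 3 rose and 4 fell in KO, and 3 were higher and 6 lower in KO at 12 months, where 58.0%, 67.0% and 70.2% of all genes were called. Stk11, which encodes LKB1, had group means of 37.5 (young WT), 41.8 (aged WT), 32.9 (young KO) and 23.6 CPM (aged KO), and it fell with age in KO (-0.48 ± 0.17, adjusted p = 0.0248). Mark1, a PAR-1 kinase, had means of 37.9, 26.4, 44.0 and 56.5 CPM for these groups, and at 2 months it was higher in KO (0.21 ± 0.06, adjusted p = 0.0249). Of the 35 genes tested from the 4 lists, 1 was higher and 6 were lower in KO at 2 months. Of all genes 1.86% were higher and 14.2% lower there, on the deposited scale, where the median of all genes was -0.088.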
